A study of Mus musculus with 34 samples.

Results

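To ask what changed in the left ventricle (LV) within 4 h of a myocardial infarction (MI), LV gene expression was compared between 4 libraries from hearts with MI that received Luc modRNA and 2 libraries from sham hearts. These 6 libraries were chosen by their sample labels from a table of 24 libraries, in a series of 34 libraries in all. Luc modRNA is modified messenger RNA that encodes luciferase, a reporter enzyme, and it serves as the control for AC modRNA, which encodes acid ceramidase. In CFW mice, the left anterior descending coronary artery was ligated permanently and the modRNA was injected into the border zone of the infarct directly afterwards. The amount of modRNA differs between the sample labels and the methods of the study and is not given here. The 2 sham libraries are labelled as sham operated, 4 h, without injection. The Luc hearts therefore differed from the sham hearts both by the infarct and by the injection with its RNA, and these cannot be told apart within this comparison. A separately normalized table of the series holds 3 LV libraries from hearts 4 h post-MI without injection and 3 from mice titled sham. Its values are set beside those of the Luc hearts. The labels of these 3 shams give no operation, whereas the paper describes 3 sequenced sham hearts as operated. Also in the table of 24 are 4 libraries from hearts that received AC modRNA and were collected 4 h post-MI. The paper does not describe the 24 libraries, so their groups rest on the labels alone. Each library is 1 labelled sample. Whether each came from its own mouse is not stated for this table, and p-values then measure only the spread between labelled samples. That spread was estimated within all 7 groups of the 24 libraries, not from the 6 libraries alone.

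Ischemic heart muscle answers within minutes to hours with a wave of immediate early genes, which need no new protein for their transcription. These encode transcription factors such as FOS and EGR1, and they are followed by cytokines, chemokines and protein chaperones that meet misfolded protein. RNA that enters a cell from outside can be read by sensors such as RIG-I and MDA5, which switch on type I interferon and the interferon-stimulated genes. The chemical modification of modRNA is meant to lower that recognition.

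The values are in CPM, reads scaled to a common library size, and the estimated depth was 17621670 to 20511342 reads per library, so that 1 read was worth 0.0317 to 0.0368 CPM. The table lists 17406 genes, of which 12555 averaged 1 CPM or more across its 24 libraries and entered the test. The 2 sham libraries stood further apart than any 2 Luc libraries did. Their values correlated at r = 0.971 (Pearson, log2(CPM + 1), across genes, which are not independent), against 0.991 to 0.996 among the Luc libraries. Among the 4 AC libraries of 4 h the range was 0.940 to 0.988. The sham value lay within that range, and the Luc libraries were more alike than either. Pairs of a Luc and a sham library had r = 0.957 to 0.974, so the highest of these was above the value between the shams. No 2 libraries were alike enough to be a single library under 2 names. Between the shams, 445 of the 12555 genes differed by more than 2-fold on the scale of CPM + 1, among them Pdk4, with 444.2 CPM in sham 1 and 1459 in sham 2. The defining markers of cardiomyocytes were abundant in all 6 libraries, with a summed level of 44368 and 45505 CPM in the shams and 46010 to 54800 in the Luc hearts. Markers of skeletal muscle (2.007 to 2.70 CPM summed over 7 genes), lung (0.163 to 0.984 over 2) and B lymphocytes (0.762 to 2.17 over 4) were near 0. Other tissue was present and uneven between the shams. Adipocyte markers summed to 585.5 and 351.3 CPM in the shams and 455.9 to 519.8 in the Luc hearts. Atrial and conduction markers summed to 118.1 and 63.6 CPM in the shams and 110.2 to 173.3 in the Luc hearts.

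Compared with sham, 157 genes were higher in the Luc hearts, 1.25% of those tested, and 37 were lower, 0.295% (limma, Benjamini-Hochberg adjusted p under 0.05, which is what called means below). All 157 and all 37 showed no overlap between the groups. The shares of 1.25% and 0.295% are the background for every count of called list members below. Among all tested genes, 17.2% had every Luc library above both shams and 15.3% had every Luc library below them. At an unadjusted p under 0.05 there were 1710 genes, and the median difference over all genes was 0.02. Differences are given in log2 units on the scale of log2(CPM + 1), which understates the change of low genes. The increases were larger than the decreases. Of the 157 genes, 133 rose by more than 1 log2 unit and 58 by more than 2, whereas 5 of the 37 fell by more than 1 and Gpr158 fell by 1.24, more than any other called gene. With sham 1 left out, so that a lone sham library was assumed to vary like the other groups, 47 genes were higher and 5 lower. With sham 2 left out, the counts were 268 and 57. Without Luc 1 there were 95 higher and 14 lower genes, and without any of the other Luc libraries 113 to 127 higher and 11 to 20 lower. Of 51 called genes chosen for naming by rule, 16 kept the call under every alternative tried, among them Fosb, Fos, Atf3, Egr1, Socs3, Zfp36, Ccl2, Cxcl10, Ifit1, Isg15, Dnajb1, Hspb1 and Thbs1, and 32 lost it without sham 1.

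Immediate early genes were among the largest increases. Fosb, a partner of JUN in the AP-1 transcription factor (mm10 chr7:19302696-19310045, minus strand), had 0.456 CPM in sham 1 and 1.02 in sham 2, and 72.8, 110.2, 70.9 and 108.4 CPM in Luc 1 to 4. The difference was 5.71 ± 0.546 (SE; adjusted p = 1.22e-06, limma). Fos itself (chr12:85473901-85477270, plus strand) had 2.05 and 5.84 CPM in the shams and 180.6, 215.5, 155.5 and 206.2 in the Luc hearts, a difference of 5.37 ± 0.55 (adjusted p = 2.93e-06, limma). Every Luc library was at least an order of magnitude above the higher sham in both genes.

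Atf3, a stress-induced repressor of the same protein family (chr1:191170297-191183333, minus strand), varied little within the groups. It had 9.61 and 7.55 CPM in the shams and 302.0, 302.1, 274.2 and 293.4 in the Luc hearts, so that the group means differed 34.1-fold ± 5.99 (propagated SD; n = 4 and 2), with a difference of 4.95 ± 0.461 (adjusted p = 1.22e-06, limma). Egr1, a zinc finger activator of growth and repair genes, had 9.16 and 23.4 CPM in the shams and 326.7, 370.9, 309.0 and 340.0 in the Luc hearts (difference 4.42 ± 0.61, adjusted p = 0.000193, limma). Nr4a1, an orphan nuclear receptor, had 7.23 and 21.7 CPM in the shams and 83.2, 75.1, 65.1 and 74.1 in the Luc hearts, a smaller difference of 2.46 ± 0.507 (adjusted p = 0.0103, limma). In Fosb, Fos, Egr1 and Nr4a1 the level was higher in sham 2 than in sham 1, and no sham value reached that of a Luc library.

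Of 26 immediate early genes tested, most of them transcription factors, 15 were called higher and none lower, with a median difference of 1.74. All 26 were above 0 and 24 had every Luc library above both shams, against 53.0% and 17.2% of all tested genes. Besides those named, Junb (3.24), Btg2 (2.81), Jun (2.55), Ier2 (2.38) and Myc (1.72) were among the 15. Fosl1, another AP-1 subunit, was not called (1.67, adjusted p = 0.18, limma). It was at 0 in both shams and at 2.56, 1.95, 2.56 and 1.72 CPM in the Luc hearts. The Luc mean was 22.5 times the level of 3 reads in sham 1. Without sham 1, 10 of the 26 were called, and Nr4a1 was not among them.

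**Figure D1:**
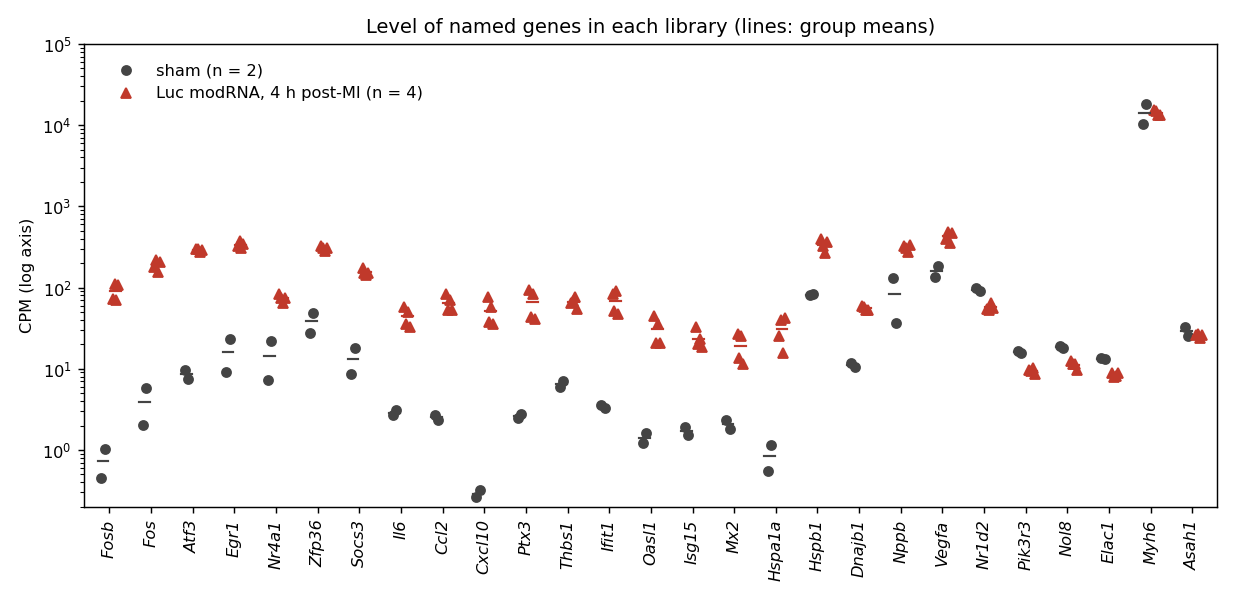
Level of 27 named genes in each library, in CPM on a log axis, for the 2 sham libraries (grey circles) and the 4 Luc modRNA libraries collected 4 h post-MI (red triangles), with lines at the group means. The groups are apart in every gene except Myh6 and Asah1, and the decreases in Nr1d2, Pik3r3, Nol8 and Elac1 at the right are smaller than the increases at the left.

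Genes that damp these signals rose beside them. Of 24 tested feedback inhibitors of MAP kinase, cytokine and NF-kB signalling, 12 were called higher and none lower, with a median difference of 1.13. Socs3, which blocks the receptors of the interleukin-6 family, had 8.64 and 17.9 CPM in the shams and 174.0, 150.5, 143.0 and 150.3 in the Luc hearts (3.52 ± 0.471, adjusted p = 0.000145, limma). Zfp36, which binds AU-rich elements and speeds the decay of cytokine mRNA, had 27.7 and 48.8 CPM in the shams and 320.7, 310.7, 278.8 and 307.1 in the Luc hearts (3.01 ± 0.453, adjusted p = 0.000496, limma). Both rose by a similar amount in all 4 Luc libraries. Tnfaip3 (A20, a brake on NF-kB; 2.90) and Nfkbiz (an atypical I-kappa-B; 2.21) were close to the threshold, with adjusted p-values of 0.0498 and 0.0487 (limma). This list depended on single libraries: 3 members were called without sham 1, and 6 to 8 when any other library was left out.

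Of the interleukin-6 family, its receptors and transducers, 1 of 16 was called, Il6 itself. Il6 had 2.67 and 3.11 CPM in the shams and 57.2, 35.6, 50.7 and 32.8 in the Luc hearts (3.50 ± 0.676, adjusted p = 0.00587, limma), and the call was lost without sham 1 (adjusted p = 0.137, limma). Osmr, the oncostatin M receptor, had 11.6 and 15.2 CPM in the shams and 24.8 to 37.0 in the Luc hearts, and Lif had under 0.13 CPM in both shams and 0.663 to 1.71 in the Luc hearts. In neither gene did the groups overlap, and neither passed the test (adjusted p = 0.138 and 0.433, limma).

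Chemokines that attract monocytes and T cells rose. Ccl2, the ligand of CCR2 on monocytes (chr11:82035577-82037452, plus strand), had 2.70 and 2.35 CPM in the shams and 83.2, 53.1, 69.8 and 52.7 in the Luc hearts (4.2 ± 0.514, adjusted p = 4.35e-05, limma). Cxcl10, the interferon-inducible ligand of CXCR3 (chr5:92346639-92348889, minus strand), had 0.261 and 0.317 CPM in the shams and 76.6, 37.8, 58.3 and 35.8 in the Luc hearts (5.29 ± 0.675, adjusted p = 7.63e-05, limma). In both genes Luc 1 and 3 were the 2 highest libraries.

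Of 25 chemokines tested, 7 were called higher (Cxcl10, Ccl2, Ccl7, Ccl4, Ccl5, Ccl3 and Ccl12) and none lower. All 25 had a difference above 0 (median 1.23), against 53.0% of all tested genes. Ccl4 was near the level of 3 reads in both shams, with 0.0978 and 0.0952 CPM, and at 10.1 to 15.2 CPM in the Luc hearts. The neutrophil attractants Cxcl1 and Cxcl2 missed the threshold, although their groups did not overlap. Cxcl1 had 3.91 and 4.79 CPM in the shams and 36.5 to 72.3 in the Luc hearts (adjusted p = 0.0565, limma), and Cxcl2 had 0.521 and 0.952 against 9.78 to 19.2 (adjusted p = 0.0874, limma). In a model of the 6 libraries alone 13 chemokines were called, and without sham 1 there were 5.

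Interferon-stimulated genes rose in part in the Luc hearts, and none of them was called in the uninjected infarcts at 4 h. Ifit1, which binds foreign 5′ ends of RNA (chr19:34640889-34650009, plus strand), had 3.58 and 3.26 CPM in the shams and 83.9, 52.1, 91.0 and 47.3 in the Luc hearts (3.92 ± 0.578, adjusted p = 0.000379, limma). Isg15, a ubiquitin-like modifier (chr4:156199424-156200818, minus strand), had 1.92 and 1.52 CPM in the shams and 32.7, 19.9995, 23.1 and 18.3 in the Luc hearts (3.14 ± 0.385, adjusted p = 4.35e-05, limma). Oasl1, a relative of the oligoadenylate synthetases (chr5:114923240-114937911, plus strand), had 1.21 and 1.62 CPM in the shams and 44.4, 21.0, 36.0 and 20.8 in the Luc hearts (3.64 ± 0.601, adjusted p = 0.00159, limma). The means of these genes were 13.6 to 21.6 times those of the shams. Mx2, a dynamin-like antiviral GTPase, had 2.31 and 1.81 CPM in the shams and 26.8, 13.4, 25.4 and 11.6 in the Luc hearts (2.65 ± 0.653, adjusted p = 0.0392, limma).

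With Gbp5 and Ifi47, 6 of 36 interferon-stimulated genes and RNA sensors were called higher and none lower. The other 30 did not pass, yet the list as a whole was shifted: the median difference was 1.10, 34 of 36 were above 0 and 30 of 36 had every Luc library above both shams, against 17.2% of all tested genes. Ifit3 had 8.78 and 5.50 CPM in the shams and 24.4 to 44.4 in the Luc hearts (2.09, adjusted p = 0.0929, limma), and Irf7, the amplifier of the interferon response, had 5.21 and 4.95 against 9.37 to 18.9 (1.18, adjusted p = 0.188, limma). The call of single members turned on how the spread was estimated. Over the 6 libraries alone 20 members were called, whereas 2 were called without sham 1 (Ifit1 and Isg15), 3 without sham 2, and 3 to 5 when a Luc library was left out. Luc 1 and Luc 3 were the 2 highest Luc libraries in 32 of the 36 genes, compared with 27.5% of all tested genes and 83 of the 157 genes called higher (52.9%). The same 2 libraries were the highest in 27 of 35 matrix genes, 19 of 25 chemokines and 16 of 20 neutrophil and monocyte markers.

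In the uninjected hearts, none of these 36 genes was called in either direction 4 h post-MI, where 1.55% of all tested genes were called higher and 0.817% lower (limma; the counts of that comparison at an unadjusted p under 0.05 were 2058 of 12487 genes). Their median difference was -0.15 and 13 of 36 were above 0, with a range of -0.51 to 0.40. Of all genes tested in that comparison, 44.5% were above 0. Ifit1 had 3.59 to 5.28 CPM in the uninjected shams and 2.67 to 4.19 in the uninjected infarcts, and Oasl1 had 0.845 to 0.940 and 1.12 to 1.34. Cxcl10, which belongs to the chemokine list, differed by 0.25 there (adjusted p = 0.601, limma), from 0.181 to 0.444 CPM in the shams to 0.526 to 0.619 in the infarcts. The difference between injected and uninjected hearts was not tested, because the tables were normalized separately and their shams are labelled differently.

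Hearts that received AC modRNA were compared with the same 2 shams, so their values are not independent of those above. At 4 h, Ifit1 ranged from 31.3 to 199.5 CPM in the 4 AC hearts and Isg15 from 12.8 to 40.3, and the differences between AC and Luc, 0.47 ± 0.472 and 0.29 ± 0.314, did not pass the test (limma). The AC hearts were uneven. Irf7 was at 4.45 CPM in AC 1, below the 5.21 and 4.95 of the shams, and at 17.4 to 23.4 in the other AC hearts. The summed interferon list was at 363.4 to 1708 CPM in the AC hearts, 676.3 to 958.9 in the Luc hearts and 336.2 and 294.3 in the shams. In later Luc hearts, Ifit1 was at 182.5 to 431.7 CPM at 24 h and at 15.5 to 68.1 CPM at 48 h, and Irf7 at 184.3 to 442.7 and 88.6 to 128.5 CPM. Uninjected infarcts at 24 h also stood above the uninjected shams, with Ifit1 at 16.2 to 47.1 CPM against 3.59 to 5.28. Irf7 was at 27.1 to 68.0 CPM there against 5.50 to 7.06, and these later differences were not tested.

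**Figure D2:**
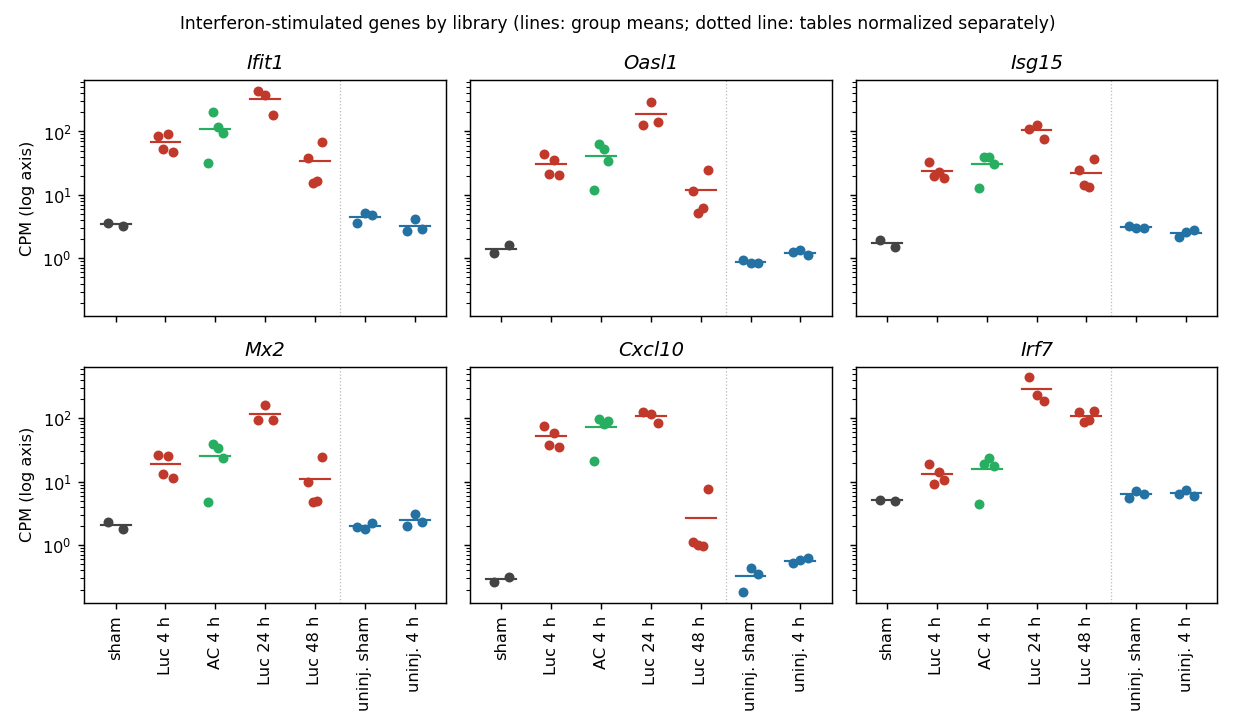
Level of 6 interferon-inducible genes in each library, in CPM on a log axis, by group: sham, Luc and AC modRNA 4 h post-MI and Luc modRNA 24 and 48 h post-MI from the table of 24 libraries, and right of the dotted line the uninjected sham and 4 h infarct hearts, normalized separately. In Ifit1, all 4 Luc libraries at 4 h (47.3 to 91.0 CPM) lie above both shams (3.58 and 3.26), while the uninjected infarcts (2.67 to 4.19) overlap with their shams (3.59 to 5.28).

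The promoters of these genes are shown because most of them share a short repeat. RefSeq promoters (GRCm38.p6, 250 bases before to 50 after the start, the one nearest to the 5′ end in the deposited annotation) were matched to 9730 of the 12555 genes. The motif GAAANNGAA, on either strand, which is the core repeat of the interferon response element and was chosen after the values had been seen, occurred in 18 of 27 interferon-stimulated genes with a promoter, against 7.41% of all 9730. Among the called members it occurred in 3 of the 5 with a promoter. A match describes the letters only. Windows of 30 bases upstream of the start are given for the called members with a match and for Cxcl10, 5′ to 3′ on the strand of the gene, with the match (or its reverse complement) in capitals. Oasl1, Mx2 and Ifi47 had no match or no promoter.
Ifit1, chr19:34640795-34640824, plus strand: cagtctcagtTTCAGTTTCtcactgctgac
Isg15, chr4:156200865-156200894, minus strand: aaaggaaaccGAAACAGAAaatagctctgg
Gbp5, chr3:142496760-142496789, plus strand: cttgtgtagtTTCAATTTCagtttagagaa
Cxcl10, chr5:92349083-92349112, minus strand: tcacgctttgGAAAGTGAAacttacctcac
The matches began 66 to 213 bases before the start. Ifit1 and Isg15 held 3 matches each before the start and Gbp5 and Cxcl10 held 1 each.

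Heat shock proteins rose in a small subset of the chaperone list. Hspa1a, the inducible HSP70 (chr17:34969359-34972156, minus strand), had 0.544 and 1.14 CPM in the shams and 25.2, 40.1, 15.6 and 42.3 in the Luc hearts (4.03 ± 0.688, adjusted p = 0.0021, limma). Its neighbour and near-identical copy Hspa1b (chr17:34956429-34959238, minus strand) had 0.349 and 0.719 CPM against 17.9, 28.3, 14.3 and 30.6 (3.90 ± 0.698, adjusted p = 0.00299, limma). Reads that fit both copies are divided between them by estimation, so how the level splits between them is uncertain. Here Luc 2 and 4 were the higher libraries, unlike in the interferon-stimulated genes, and both calls were lost without sham 1 (adjusted p = 0.0836 and 0.104, limma).

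Dnajb1, the HSP40 that loads clients onto HSP70, had 11.9 and 10.6 CPM in the shams and 59.5, 58.1, 53.1 and 53.0 in the Luc hearts (2.22 ± 0.204, adjusted p = 1.22e-06, limma). Hspb1, the small heat shock protein HSP27, had 80.8 and 82.7 CPM against 395.9, 326.4, 265.7 and 363.1 (2.02 ± 0.275, adjusted p = 0.000174, limma). With Dnaja1 (0.89), 5 of 19 chaperones were called higher and none lower, and 3 without sham 1. Dnaja1 was not called without sham 2 (adjusted p = 0.0669, limma). The endoplasmic reticulum chaperone Hspa5 had 766.7 and 538.5 CPM in the shams and 661.0 to 728.7 in the Luc hearts, and the mitochondrial Hspd1 had 353.2 and 301.8 against 282.3 to 301.9, differences of 0.12 and -0.14 that did not pass.

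The pair GAANNTTC, an inverted pair of the units that heat shock factor 1 binds, occurred in 8 of 13 chaperone promoters, against 5.601% of all 9730, and in 4 of the 5 called members. The windows below are printed because the copies Hspa1a and Hspa1b carry the same letters, with the match in capitals.
Hspa1a, chr17:34972242-34972271, minus strand: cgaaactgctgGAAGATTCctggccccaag
Hspa1b, chr17:34959324-34959353, minus strand: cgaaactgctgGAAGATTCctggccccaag
Hspb1, chr5:135887811-135887840, plus strand: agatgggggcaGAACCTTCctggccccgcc
Dnaja1, chr4:40722333-40722362, plus strand: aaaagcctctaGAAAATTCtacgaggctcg
The cyclic AMP palindrome TGACGTCA occurred in 1 of 20 immediate early promoters (Btg2) and in 3.25% of all, and the AP-1 site TGANTCA in 12 of the 110 called higher genes with a promoter (10.9%) and in 4.86% of all.

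Among oxidative stress, metallothionein and integrated stress response genes, 3 of 23 were called higher, both metallothioneins and Gadd45g. Mt2, a zinc-binding antioxidant protein, had 15.3 and 17.8 CPM in the shams and 256.3, 113.5, 159.8 and 122.1 in the Luc hearts (3.15 ± 0.576, adjusted p = 0.00366, limma). Mt1 had 44.0 and 53.9 CPM against 311.8, 171.1, 175.5 and 175.4 (2.03 ± 0.423, adjusted p = 0.0114, limma), with Luc 1 far above the rest. Without sham 1 only Gadd45g kept its call. Hmox1, heme oxygenase 1, had 10.2 and 13.3 CPM in the shams and 25.5 to 51.2 in the Luc hearts without passing (adjusted p = 0.103, limma).

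Genes of the matrix and of growth factor shedding rose in 9 of 35 cases and fell in none, with a median difference of 0.61. Thbs1, thrombospondin 1, which activates latent TGF-β, had 5.90 and 7.04 CPM in the shams and 64.1, 67.6, 77.2 and 54.9 in the Luc hearts (3.16 ± 0.429, adjusted p = 0.000172, limma). Ptx3, a secreted pattern recognition protein, had 2.44 and 2.76 CPM against 94.1, 43.2, 83.8 and 41.5 (4.12 ± 0.711, adjusted p = 0.00234, limma). The proteases Adamts4 (3.42) and Adamts1 (2.08) and the growth factor Hbegf (1.99) were also called. Timp1 was not, at 1.73 and 1.46 CPM in the shams and 3.50 to 6.81 in the Luc hearts (adjusted p = 0.269, limma). Without sham 1, 2 of the 9 calls were made.

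In the endothelial and coagulation list, 4 of 21 were called higher, among them Ptgs2, the inducible cyclooxygenase (2.94, adjusted p = 0.0106, limma), Plaur, the urokinase receptor (1.96, adjusted p = 0.00314, limma), and Thbd, thrombomodulin (1.67, adjusted p = 0.0151, limma). The leukocyte receptors of activated endothelium did not pass in the Luc hearts. Sele, E-selectin, had 1.11 and 1.84 CPM in the shams and 4.53 to 9.65 in the Luc hearts (1.64 ± 0.798, adjusted p = 0.37, limma), and Selp, P-selectin, had 1.70 and 2.46 against 10.7 to 16.7 (2.23 ± 0.732, adjusted p = 0.15, limma). Both were called in the uninjected hearts, where they rose by 3.23 and 3.28. None of the 4 calls was made without sham 1.

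Of 20 neutrophil and monocyte markers, 5 were called higher (S100a9, S100a8, Il1b, Csf3r and Trem1). Every Luc library was above both shams in 17 of the 20 markers, against 17.2% of all tested genes. Their summed level was 31.5 CPM in sham 1 and 7.23 in sham 2, and 110.6 to 216.5 CPM in the Luc hearts. S100a9, a calcium-binding protein that neutrophils carry in large amounts, had 10.7 and 1.24 CPM in the shams and 85.6, 43.8, 65.0 and 39.1 in the Luc hearts (3.47 ± 0.646, adjusted p = 0.00423, limma). Without sham 2, whose level was the lower, the difference was 2.27 for S100a9 and 1.73 for S100a8 and neither was called (adjusted p = 0.106 and 0.23, limma). Of the 20 markers, 3 were called without sham 1, 2 without sham 2 and 3 without Luc 1. The monocyte markers Ccr2 and Ly6c2 did not pass the test. Ccr2 had 1.15 and 0.773 CPM in the shams and 0.800 to 1.02 in the Luc hearts, and Ly6c2 had 3.03 and 0.218 against 0.433 to 1.205. More cells of a type and more RNA per cell cannot be told apart in bulk tissue, and the part of these cells in the rise of the chemokines and of the interferon-stimulated genes was not tested.

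Of 5 red cell markers, 2 were called higher in the Luc hearts, both alpha globins. Hba-a1, an alpha globin, had 232.0 and 78.0 CPM in the shams and 1265, 1204, 822.6 and 1111 in the Luc hearts (3.003 ± 0.528, adjusted p = 0.00266, limma), and its near-identical copy Hba-a2 rose by 2.84. Without sham 2 neither was called (adjusted p = 0.0678 and 0.0762, limma), at differences of 2.22 and 2.05. The beta globin Hbb-bs had 168.3 and 38.4 CPM in the shams and 279.4, 163.2, 189.9 and 156.1 in the Luc hearts (1.24 ± 0.521, adjusted p = 0.285, limma), so that its groups overlapped. In the uninjected hearts Hba-a1 differed from sham by 1.28 and Hbb-bs by 1.58. The part of blood in the other results was not tested. Markers of endothelium, fibroblasts, smooth muscle and macrophages had no member called, and resident macrophage genes had none among 18, with Lyve1 at 13.5 and 18.6 CPM in the shams and 18.4 to 23.7 in the Luc hearts. Of all tested genes, 1.25% were called higher and 0.295% lower, so none among 18 is close to those shares.

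The contractile and electrical genes of cardiomyocytes did not pass the test. None of 23 sarcomere and calcium handling genes was called (limma), with differences of -0.58 to 0.46 and a median of 0.08, and none of 24 ion channel and gap junction genes, with a median of -0.01. Of all tested genes, 1.25% were called higher and 0.295% lower, so none in lists of this size is close to those shares. Over the 6 libraries alone, no member of these lists was called higher. Myh6, the adult myosin heavy chain, had 10381 and 18078 CPM in the shams and 13291 to 15178 in the Luc hearts, all between the shams. Kcnip2, a subunit of the transient outward potassium channel, had 207.1 and 192.6 CPM against 215.9 to 274.6. Kcnj2, the inward rectifier, had 32.0 and 46.0 CPM against 20.1 to 27.2, without overlap but without a call (-0.71 ± 0.287, adjusted p = 0.271, limma).

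Wall stress genes rose in part. Nppb, the natriuretic peptide BNP, had 131.2 CPM in sham 1 and 36.1 in sham 2, and 323.7, 310.2, 271.0 and 337.0 in the Luc hearts (2.15 ± 0.39, adjusted p = 0.00343, limma). Xirp1, an actin-binding protein of the intercalated disc, had 165.6 and 233.8 CPM against 633.4 to 737.9 (1.81 ± 0.445, adjusted p = 0.0386, limma). These were the 2 called among 11 natriuretic peptide and fetal genes. The call of Nppb was lost without sham 2 (adjusted p = 0.109, limma) and that of Xirp1 without sham 1 (0.439). Ankrd1, a cardiac ankyrin repeat protein, had 1313 and 1031 CPM against 1525 to 1725 (0.47 ± 0.217, adjusted p = 0.347, limma).

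Metabolic genes passed the test singly, against a share of 1.25% called higher among all tested genes. Of 31 genes of fatty acid uptake and oxidation, 1 was called higher, Angptl4, an inhibitor of lipoprotein lipase (1.91 ± 0.401, adjusted p = 0.0118, limma). Its shams differed, at 2.87 and 9.58 CPM, below the 19.3 to 28.3 CPM of the Luc hearts, and its call was lost without sham 1. For Pdk4, which holds back pyruvate oxidation, the Luc hearts lay between the shams, at 832.4 to 1097 CPM against 444.2 and 1459. Of 30 glycolysis and hypoxia genes, 1 was called, Vegfa, the main angiogenic factor, although 24 of the 30 were above 0, 15 had every Luc library above both shams and the median difference was 0.34. Among all tested genes, 53.0% were above 0 and 17.2% had every Luc library above both shams. Vegfa had 135.3 and 183.2 CPM in the shams and 396.9, 490.3, 358.5 and 466.7 in the Luc hearts (1.43 ± 0.254, adjusted p = 0.00293, limma). In the AC hearts it was at 186.9 to 268.4 CPM, below every Luc library, with a difference from Luc of -0.93 ± 0.207 that did not pass (adjusted p = 1, limma), and in the uninjected hearts it differed by -0.09 from sham. Without sham 1 the call of Vegfa was lost.

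In the circadian list, 4 of 19 genes were called higher and 1 lower. Bhlhe40 (1.44), Bhlhe41 (1.003), Nfil3 (1.82) and Npas2 (0.98) rose. Nr1d2, REV-ERB beta, a repressor of the clock (chr14:18204056-18239106, minus strand), had 98.5 and 89.96 CPM in the shams and 53.9, 53.5, 64.9 and 56.2 in the Luc hearts (-0.72 ± 0.159, adjusted p = 0.0182, limma). None of the 4 increases was called without sham 1. Per1, which is read as a marker of the time of day and of stress hormones, had 32.4 and 84.9 CPM in the shams and 51.8 to 62.3 in the Luc hearts, all between the shams, and Dbp had 21.9 and 36.3 against 8.96 to 24.2.

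In the ceramide and sphingosine phosphate list, the pathway of the enzyme that AC modRNA encodes, 1 of 24 genes was called higher, the receptor S1pr3 (1.17 ± 0.264, adjusted p = 0.0195, limma), which lost the call without sham 1 (adjusted p = 0.414, limma) and missed the threshold without Luc 1 (0.0557). Asah1, acid ceramidase, had 32.9 and 25.1 CPM in the shams and 25.7, 27.2, 23.9 and 25.8 in the Luc hearts. Sphk1, which makes sphingosine 1-phosphate, had 2.38 and 3.78 CPM against 12.6 to 19.3 without passing (1.97 ± 0.558, adjusted p = 0.0811, limma). None of 15 Clk kinase and SR splicing factor genes and none of 16 adrenergic and angiotensin receptors and regulators was called by limma, with medians of 0.00 and -0.08. Among all tested genes the called shares were 1.25% higher and 0.295% lower. Of 16 VEGF, angiopoietin and apelin genes, Vegfa alone was called.

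**Figure D3:**
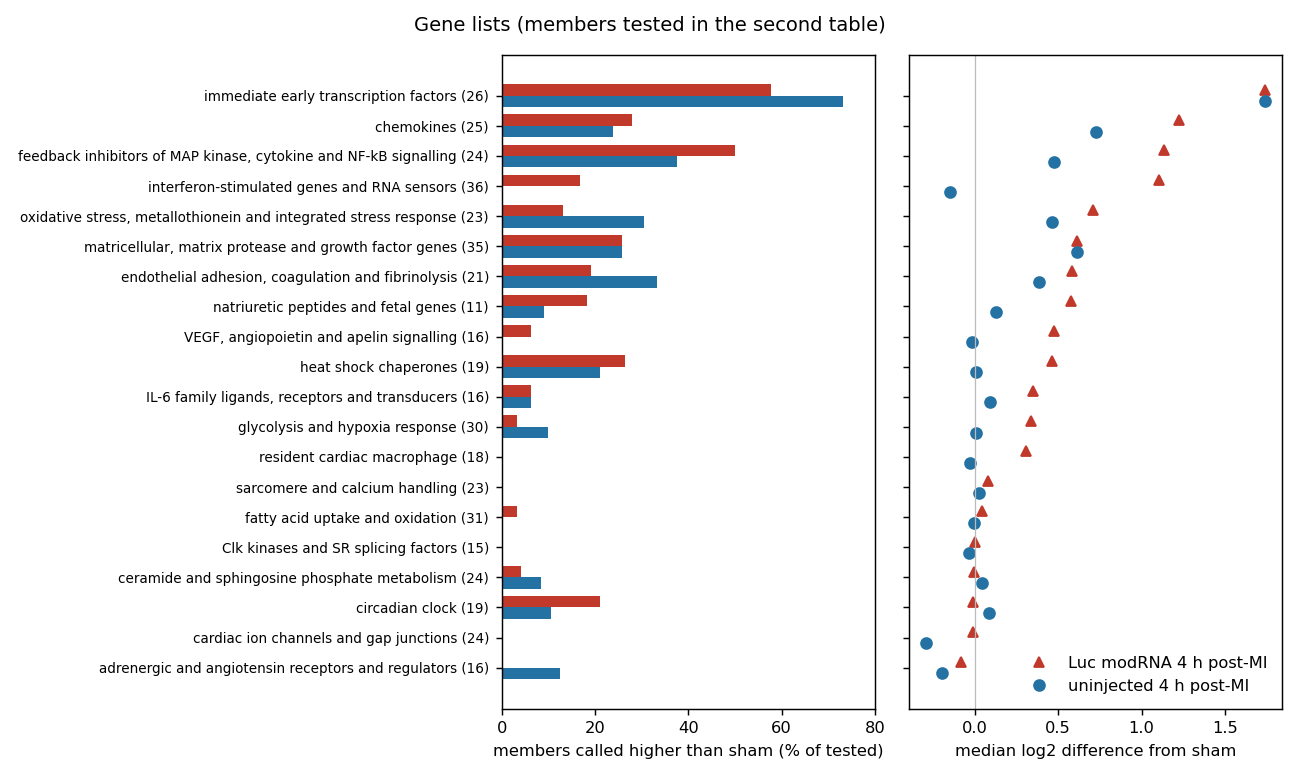
Share of the tested members of each gene list called higher than sham (left, % of tested, bars) and median log2 difference from sham (right, symbols), for Luc modRNA hearts 4 h post-MI in red and uninjected hearts 4 h post-MI in blue, with the number of members tested in brackets. Immediate early genes have medians of 1.74 in both, whereas the interferon list is at 1.10 in the Luc hearts and at -0.15 in the uninjected hearts, where no member was called.

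The decreases were smaller and rested on less abundant genes. Of the called genes that averaged 10 CPM or more over the 6 libraries, 6 were lower and 108 higher. Pik3r3, a regulatory subunit of phosphoinositide 3-kinase, had 16.7 and 15.4 CPM in the shams and 9.58, 9.30, 10.2 and 8.54 in the Luc hearts (-0.72 ± 0.184, adjusted p = 0.0494, limma). Pdp1, the phosphatase that activates pyruvate dehydrogenase, had 32.8 and 24.8 CPM against 17.8, 16.1, 17.5 and 18.01 (-0.69 ± 0.172, adjusted p = 0.043, limma). Nol8 (-0.69), Dhx36, a helicase of RNA G-quadruplexes (-0.62), and Elac1 (-0.61) had adjusted p-values of 0.0434 to 0.0497 (limma), close to the threshold. With Nr1d2 these are the 6, and none of them was called without sham 1.

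Zinc finger protein genes were frequent among the decreases, a pattern seen only after the values were known. Of 297 tested genes whose symbol is Zfp followed by a number, 18 were called lower, 6.06%, compared with 19 of the other 12258 genes, 0.155%. The whole class was shifted, with a median difference of -0.34 and 81.8% of members below 0, against 46.2% of the other genes. Zfp870 had 8.93 and 7.43 CPM in the shams and 3.32, 3.19, 4.10 and 3.06 in the Luc hearts (-1.06 ± 0.177, adjusted p = 0.00175, limma), and Zfp763 had 3.52 and 4.16 against 1.57, 1.75, 1.25 and 1.25 (-0.98 ± 0.178, adjusted p = 0.00344, limma). Without sham 1, 1 of the 297 was called lower, Zfp763, and without sham 2 there were 24. Without Luc 1 or Luc 2 there were 10 and 8, and the median of the class was -0.34 to -0.31 with any of the 6 libraries left out. The members were low, with a median over the class of 4.52 CPM. Many such genes are recent copies of each other, so reads could be shared among them. Zfp36, named above, Zfp36l1 and Zfp593 are the 3 of the class that were called higher. In the uninjected hearts 28 of the 297 were called lower, 9.43%, compared with 0.619% of the other genes, and the median of the class was -0.31.

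**Figure D4:**
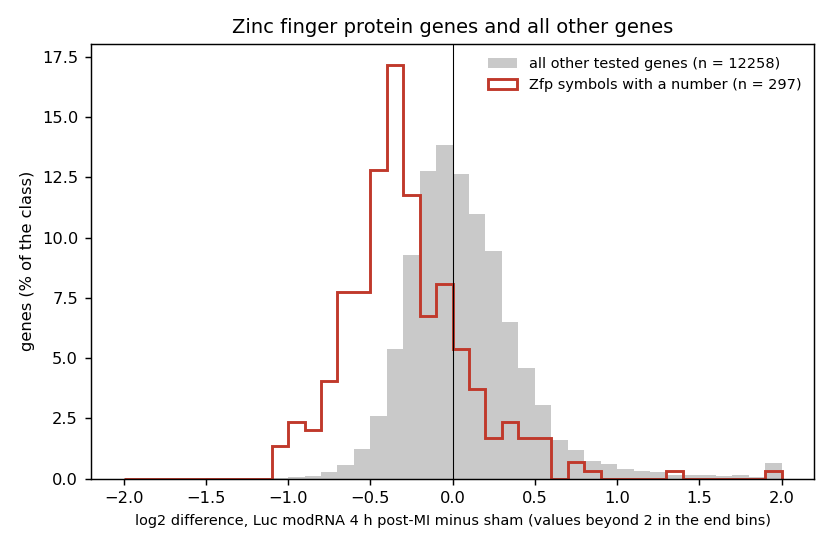
Distribution of the log2 difference between Luc modRNA hearts 4 h post-MI and sham, as % of each class, for 297 genes with a Zfp symbol and a number (red outline) and the other 12258 tested genes (grey). The red distribution is displaced to the left, with a median of -0.34, and the grey one is centred near 0.

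The uninjected hearts are other samples with shams of their own. In that table, 194 of 12487 genes were called higher 4 h post-MI and 102 lower. Of the 157 genes higher in the Luc hearts, 71 were also called higher there (45.2%), and these made up 36.6% of the 194. Of the 156 that were tested in both, 141 had a difference above 0 without injection (90.4%), compared with 44.4% of all genes tested in both. Of the 37 genes lower in the Luc hearts, 6 were called lower and 36 had a difference below 0 in the uninjected hearts, compared with 55.6% of all genes. Immediate early genes were close in size: Atf3 differed by 4.95 in the Luc hearts and 5.45 in the uninjected hearts, Nr4a1 by 2.46 and 2.90, and the list median was 1.74 in both. Il6 (3.50 and 4.52) and Socs3 (3.52 and 4.46) were also high in both, and the shared size was not tested.

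**Figure D5:**
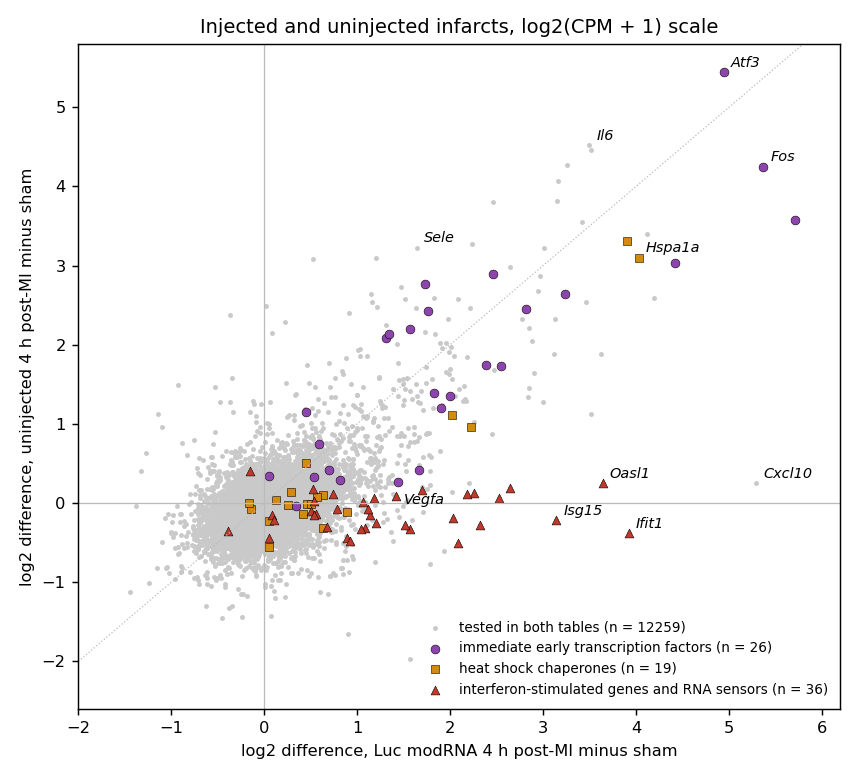
Log2 difference from sham in Luc modRNA hearts (x axis) and in uninjected hearts (y axis), both 4 h post-MI, for 12259 genes tested in both tables, with the dotted line at equal values. Immediate early genes (purple) scatter about the line, heat shock genes (orange) with the largest differences lie below it, and interferon-stimulated genes (red triangles) extend to the right at a height of -0.51 to 0.40.

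Between the AC and Luc hearts at 4 h, 1 gene was called of 12555 tested (0.00796%; 131 at an unadjusted p under 0.05). It was Asah1 itself, at 5296 to 13703 CPM in the 4 AC hearts and 23.9 to 27.2 in the Luc hearts (8.20 ± 0.293, adjusted p = 6.2e-15, limma). No other difference between the injected groups passed the test at 4 h. The 131 genes were fewer than the share of 0.05 that chance alone gives on average. The test was thus strict here, and the lack of calls does not show that the groups were alike. Against the same 2 sham libraries, 198 genes were called in the AC hearts, beside the 194 of the Luc hearts.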

How the data were processed

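LV tissue was sequenced as single 50-base reads from poly(A) libraries. Per the study's methods, the authors aligned reads with STAR to mm10, quantified RefSeq genes by expectation-maximization and scaled them by TMM, and they deposited the result as CPM values. The lowest value was exactly 1 in every library of the 24-library table, and this 1 was subtracted here. Use of strand in counting is not given in the sources used here. Of the values below 1 CPM, 86.3 to 87.6% were whole multiples of 1 read (tolerance 0.05 read), so no count test was run. Genes with an average under 1 CPM over the 24 libraries were dropped, and log2(CPM + 1) was fitted with limma 3.58.1 (R 4.3.3) over all 7 groups, with a trended prior variance and Benjamini-Hochberg adjustment over all genes. The uninjected table was fitted alone over its 3 groups. Tested on simulated data for the Luc comparison (12544 genes), the fit recovered 89 of 89 4-fold and 105 of 111 2-fold changes, with 12 false calls. The simulation gave all genes and libraries the same dispersion of 0.03 and changed no gene of low level. The real shams stood further apart than the Luc libraries, so these rates need not hold for the real data. Named genes were the 10 with the largest called change per direction and a mean of at least 10 CPM, up to 4 per direction from each list, and genes fixed by name. The members and lists were chosen with earlier results of these data known. Alternatives were other scalings, filters, pseudocounts, models, array weights, a replicate block and leaving out each library. Some single-gene results are not reported here.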

Additional observations from a re-analysis of the deposited data

Results flagged for a closer look

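In Luc 1, Mt1 was at 311.8 CPM, far above the 171.1 to 175.5 CPM of the other Luc libraries, and Npas2 was at 2.66 CPM, below their 3.94 to 4.03 CPM. These were 2 of 72 genes checked for a Luc library far from the rest, and chance flags about 1 in 20 groups.

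Asah1 differed between AC and Luc hearts at 4 h by 8.20 log2 units (adjusted p = 6.2e-15, limma). Isg15 moved in opposite directions in the Luc and the uninjected hearts, by 3.14 and -0.21, a gap of 3.36 log2 units. Every Luc library was above both of its shams and every uninjected infarct library was below its shams. The difference was not tested. Of 72 genes checked for opposite directions, Isg15 alone was flagged. Ifit1 and Ifit3 were also higher in the Luc hearts and lower on average in the uninjected infarcts, but their uninjected groups overlapped.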

How the results depend on the processing

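For Luc against sham, a pseudocount of 0.1 gave 239 higher genes, a mean of at least 10 CPM gave 122 genes in all with 5 lower, and array weights gave 14 lower. The compared groups alone gave 580 genes (473 higher, 107 lower), and the 10 libraries of sham and both 4 h groups gave 298 (250 higher). Leaving out 1 library gave 52 to 325 genes, 47 to 268 higher and 5 to 57 lower, the lowest without sham 1 and the highest without sham 2. The replicate block over those 10 libraries gave 16 lower genes. Deviations of same-numbered libraries correlated at 0.04 and 0.05 between Luc and sham, at 0.43 and 0.33 between AC and sham, and at 0.25, 0.23, -0.14 and 0.10 between AC and Luc, so not every pair was above 0.1 and the labels give the numbers no meaning.

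In the uninjected hearts, a mean of at least 10 CPM gave 42 lower genes, equal totals 175 lower, array weights 2500 genes (1030 higher, 1470 lower), the groups alone 715 (334 and 381) and the replicate block by letter 117 (105 and 12). Leaving out 1 library gave 105 to 243 genes, 99 to 188 higher and 6 to 55 lower. Between AC and Luc, no filter gave 4 genes with 3 lower, array weights gave 6 (2 higher, 4 lower), and leaving out 1 library gave 1 gene, higher, and 0 lower. The causes were not tested. None of the 51 called named genes changed direction, whereas Pdk4 (-0.63 to 1.08), Per1 (-0.60 to 0.76), Myh6 (-0.35 to 0.45) and Asah1 (-0.35 to 0.03), which were not called, took both signs. With 2 shams that differ from each other, the size of a change rests on few control values, and genes of a few reads have no reliable fold.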

Other observations

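Of the 157 genes higher in the Luc hearts, 79 belonged to none of the lists. The genes named here were picked from these after their values were seen. Arc, an activity-induced gene best known from neurons, averaged 1.04 CPM in the shams and 16.8 in the Luc hearts (a difference of 3.12, adjusted p = 0.00134, limma). Rrad, a GTPase that restrains calcium channels, averaged 63.5 and 287.1 CPM (2.16), and Sdc4, a heparan sulfate proteoglycan of the cell surface, 19.8 and 91.7 CPM (2.14). In the uninjected hearts Arc, Rrad and Sdc4 differed from sham by 1.88, 1.32 and 1.28.

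Genes of innate recognition were also among the 79. Cd14, the lipopolysaccharide co-receptor, differed by 1.68 (adjusted p = 0.0273, limma) and by 1.41 in the uninjected hearts. Myd88, the adaptor of most Toll-like receptors, differed by 1.19 (adjusted p = 0.0146, limma) and by 0.42 in the uninjected hearts. The actins of the cytoskeleton, Actb (0.88) and Actg1 (1.19), were called as well, and differed by 0.42 and 0.63 in the uninjected hearts. Whether these differences differ between injected and uninjected hearts was not tested. Without sham 1, Arc, Rrad, Cd14, Myd88, Actb and Actg1 were not called and Sdc4 was, and without sham 2 Myd88 and Actb were not called (limma; adjusted p = 0.0541 and 0.0649).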
